A study of Mus musculus with 29 samples.

Results

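ON bipolar cells (ON-BCs) were compared with rods across all genes of an RNA-seq table, using the 3 ON-BC libraries and the 3 rod libraries out of 15 RNA-seq libraries in a series of 29 samples. The table held 24062 genes. ON-BCs came from mice with the genotype Otx2-GFP+/-; Grm6-YFP+/+ at postnatal days 43, 48 and 42 for libraries 1, 2 and 3. In these mice GFP sits at one Otx2 allele and a YFP transgene uses the promoter of Grm6. ON-BCs were taken by the intensity of this fluorescence in a single pass of fluorescence-activated cell sorting. Rods came from Nrl-eGFP mice at postnatal day 56, also by a single sort, and were re-analysed from earlier work of the same laboratory. The labels list no treatment for either population, and both were dissociated with papain and made into libraries with the same kit for small amounts of RNA. Cell class, reporter genotype, age and study therefore changed together, and their parts in any difference cannot be told apart. Each library holds the RNA of many sorted cells, so fewer cells of a type and less RNA per cell cannot be told apart either, and p-values measure the spread between these libraries. Grm6, Otx2 and Nrl supplied the sorting reporters and are described here without being taken as independent results. Blue cones, cited below, are photoreceptors of Nrl-knockout mice at postnatal day 56 that the study used in place of blue cones. Their libraries also entered the fit. So did libraries of OFF bipolar cells (OFF-BCs) at postnatal days 43, 48 and 42 and of all bipolar cells at postnatal days 47, 44 and 44.

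Rods and ON-BCs are neighbouring neurons of the retina. Rods capture photons in an outer segment, and light lowers their release of glutamate. ON-BCs sense that glutamate with the metabotropic receptor mGluR6, which holds the cation channel TRPM1 shut through a G protein, so ON-BCs depolarize when light reduces glutamate. Both cells release glutamate from synaptic ribbons and derive from related precursors that depend on the homeodomain factor OTX2. The rod bipolar cell, which carries the rod signal and stains for protein kinase C alpha, is the most abundant ON-BC type in the mouse.

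The libraries held 14974898 to 15695544 reads in ON-BCs and 18332615 to 20852758 reads in rods, with a read in 15477 to 15931 and in 14263 to 14748 genes, respectively. The 10 most abundant genes took 8.15 to 8.51% of the reads in ON-BCs and 20.02 to 23.55% in rods. Within a population, pairs of libraries correlated across genes with Pearson's r of 0.979 in ON-BCs and 0.984 to 0.985 in rods on the log2 scale. They differed by more than counting error, with a chi-square per gene of 12.3 to 30.2, so none was a repeat of another. Values below are normalized counts, that is, reads divided by the size factor of the library. A gene was called higher or lower when limma placed its difference beyond a log2 fold change of 1 in either direction at an adjusted p below 0.05.

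The labels were first set against marker genes. Grm6, the gene of mGluR6, was at 13260, 13840 and 13400 normalized counts in the ON-BC libraries and at 39.78, 51.22 and 113.5 in the rod libraries. Prkca, the gene of protein kinase C alpha, was at 9037, 9025 and 6656 in ON-BCs and at 978, 1085 and 997.4 in rods. Prkca thus separated the populations without overlap, at a log2 fold change of 3.0 (limma adjusted p = 0.0011, standard error 0.48), and was also detected in every rod library. All 7 rod bipolar markers and all 10 ON cone bipolar markers were called higher in ON-BCs, against 26.2% of all tested genes. The ON cone bipolar list did not separate ON from OFF bipolar cells, since it summed to 48730 to 55920 in ON-BCs and 102400 to 113000 in OFF-BCs, with higher means of Scgn, Serpini1 and Cpne9 in the latter. Lrrtm1, a marker of the cone bipolar type BC5D that has little Grm6 and may fall outside the ON gate, was at 79.45, 121.5 and 83.11 in ON-BCs.

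Markers of other cells were present at lower levels. The 10 OFF bipolar markers summed to 3642 to 4177 normalized counts per ON-BC library and 38.81 to 156.7 per rod library. Of these 10, 9 were called higher in ON-BCs, against 26.2% of all tested genes. Within that list Tacr3 and Neto1 stood at means of 13.1 and 4.07 in ON-BCs, while Vsx1 and Pcdh17, which some ON types also express, stood at 974.9 and 800.6. The 13 rod markers summed to 30530 to 37460 in ON-BCs against 2031000 to 2809000 in rods. Müller glia markers reached 6598 to 7807 in ON-BCs, most of it Clu at a mean of 5380, and 2147 to 3511 in rods. Amacrine markers reached 328.3 to 487 in ON-BCs and 2115 to 2448 in rods, where Slc6a9 alone was at a mean of 2271. Horizontal, ganglion, endothelial, microglia and pigment epithelium markers each summed to at most 336.1 in any library of either population, and red blood cell markers were at 0 throughout. The part of such cells in the results was not tested.

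ON-BCs and rods differed in a large part of the transcriptome. Of 14024 genes tested, 3672 (26.2%) were called higher in ON-BCs and 2183 (15.6%) lower, which is 41.7% in either direction. The higher genes had a median log2 fold change of 3.64, and 1635 of them differed by more than 16-fold. The lower genes had a median of −2.42, and 468 differed by more than 16-fold. Genes called higher took 38.5% of the counts in ON-BCs and 4.19% in rods, while genes called lower took 6.47% in ON-BCs and 51.2% in rods. The genes lower in ON-BCs were fewer but held the larger share of counts in their own population. In every rod library 360 of the higher genes had no read, and 38 of the lower genes had none in any ON-BC library. Libraries of both populations overlapped in 1 called gene, Glp1r, which was singled out for this and was at 0, 43.11 and 41.04 in ON-BCs and 0 in rods. Separation without overlap was common in itself, with 44.1% of tested genes above in every ON-BC library and 36.8% below. At the other end, 3673 genes (26.2%) had a 95% interval that lay inside a log2 fold change of −1 to 1, and 4496 genes were neither called nor bounded in this way.

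The split by direction depended on the scaling. When libraries were scaled to their totals alone, the median log2 fold change of all genes moved up by 0.353 from 0.17, and 4302 genes were higher and 1584 lower, so that 73.1% of called genes were higher against 62.7% with the authors' size factors. Log2 fold changes below are as fitted, with no median subtracted.

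**Figure D1:**
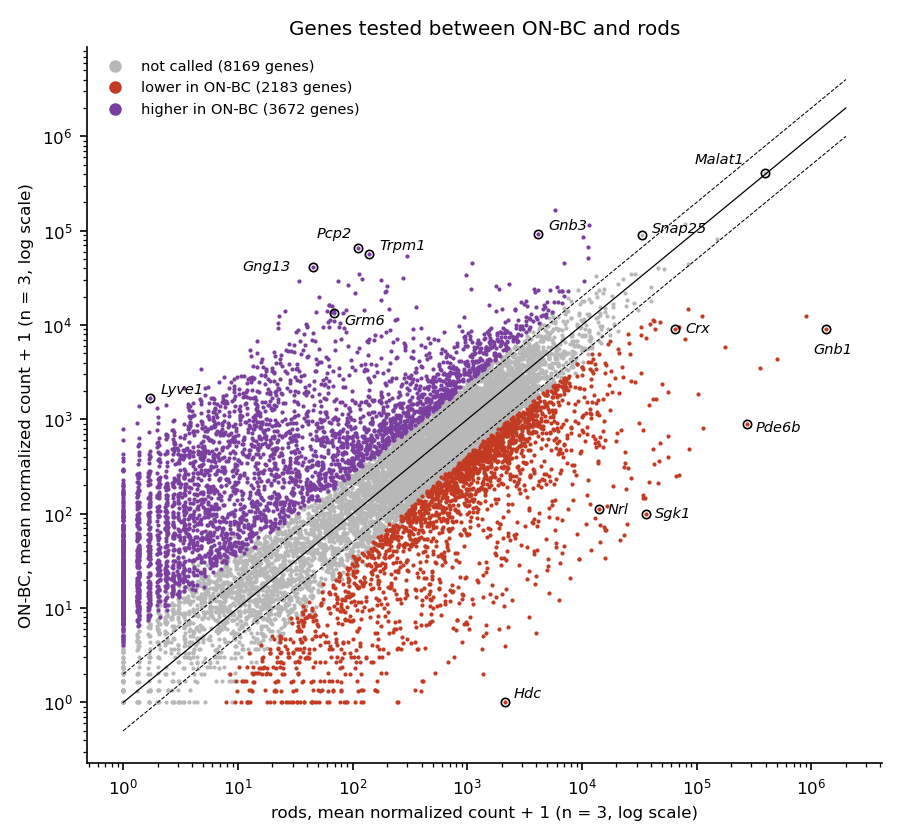
Mean normalized count plus 1 of each tested gene in rods (horizontal) and ON-BCs (vertical), both on log10 axes, with genes called higher and lower in ON-BCs in colour, the diagonal and 2-fold lines drawn and selected genes labelled. The 3672 higher genes spread widely at low rod levels, while the most abundant lower genes such as Gnb1 and Pde6b sit at the far right.

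The mGluR6 cascade had the highest median difference toward ON-BCs among the gene lists. Of its 17 genes, 11 were called higher in ON-BCs against a background of 26.2%, 4 were called lower, and the median log2 fold change was 7.57 against 0.17 over all tested genes. Trpm1 encodes the transduction channel of the cascade and was at 59200, 59740 and 51660 normalized counts in ON-BCs against 97.02, 121.9 and 196.7 in rods. The difference of 8.73 on the log2 scale (limma adjusted p = 2.67e-14, standard error 0.23) was far beyond the spread in either population. Gnao1 encodes the alpha subunit of the G protein and was at 14620, 15750 and 13520 in ON-BCs against 200.8, 193.6 and 222.6 in rods. Gnb3, its beta subunit, was at 83170, 86840 and 108700 against 3341, 4433 and 4699. Gng13, its gamma subunit, was at 40890, 42740 and 39850 against 29.11, 37.9 and 65.92. All 3 subunits were thus higher, but unequally, with log2 fold changes of 6.14 for Gnao1, 4.49 for Gnb3 and 9.91 for Gng13. Gnb3 is also the beta subunit of cone transducin, and it kept the highest level of the 3 in rods.

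Proteins that end the mGluR6 signal followed the same direction. Rgs7, a GTPase-accelerating protein, was higher by a log2 fold change of 8.96, Rgs11, its partner in these cells, by 7.91, and their anchors Rgs7bp and Gpr179 by 7.57 and 8.29. Gnb5, the beta subunit that both RGS proteins share with the rod protein RGS9, was at 15040, 15810 and 16810 in ON-BCs and 26150, 24750 and 21980 in rods. The Gnb5 log2 fold change of −0.61 (95% interval −0.89 to −0.34) lay inside the limits of −1 to 1. Pcp2, a modulator of the Go alpha subunit, was at 67540, 59950 and 69450 against 70.83, 89.12 and 172.9 and was among the 10 most abundant genes of ON-BCs. In contrast, Gpsm2 and Ric8b, which act on G protein alpha subunits in many cells, were lower by log2 fold changes of −3.37 and −3.42.

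Leucine-rich proteins of the synapse split between the populations. Nyx encodes nyctalopin, which positions TRPM1, and was at 653.2, 651.6 and 546.9 in ON-BCs and at 1.94, 1.024 and 1.081 in rods. Lrit3, needed for the same channel cluster, was at 3.096, 12.74 and 1.026 in ON-BCs and at 407.5, 400.5 and 368.5 in rods. The Lrit3 difference of −6.34 on the log2 scale (limma adjusted p = 1.34e-06, standard error 0.67) was opposite in sign to that of Nyx, and the libraries did not overlap. Lrit2 was also lower, by −3.15, whereas Lrit1 was at 3665 to 4540 in ON-BCs and 4084 to 4470 in rods, a difference of −0.05 on the log2 scale. Lrit1 and Lrit2 are neighbours in the genome, and reads were not stated to be counted by strand. Other proteins that rods place across this synapse were also lower in ON-BCs. Elfn1, an adhesion protein of rod terminals that binds mGluR6, was at 20.64, 11.76 and 11.29 against 705.4, 623.8 and 773.8, and Egflam, which encodes pikachurin, was at 78.42, 73.49 and 49.25 against 4735, 6572 and 6093. Dag1, the dystroglycan that binds pikachurin, was at 363.2 to 440.6 in ON-BCs and 316.5 to 485.1 in rods.

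**Figure D2:**
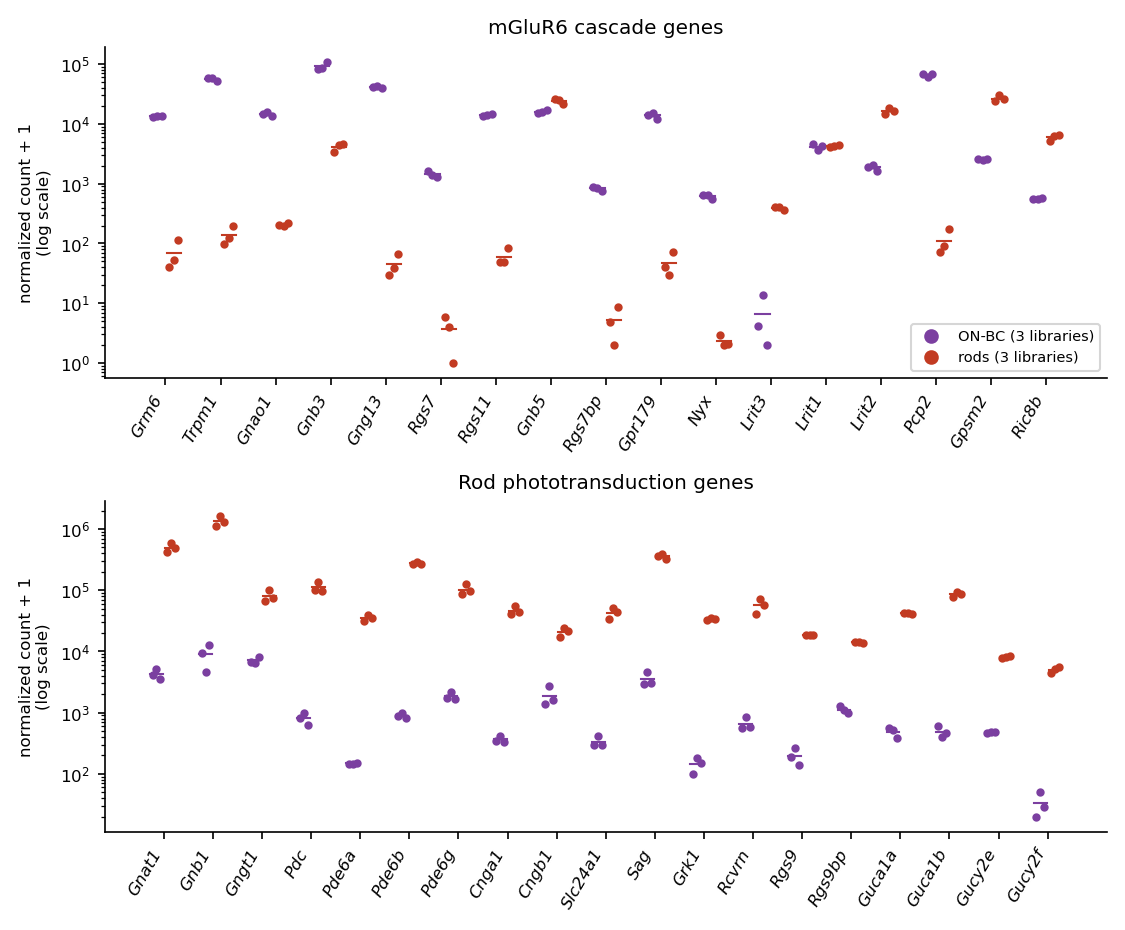
Normalized counts plus 1 (log10 axis) of mGluR6 cascade genes and 19 rod phototransduction genes, with 1 point per library for the 3 ON-BC and the 3 rod libraries. Points of the same population lie close together, 11 of 17 cascade genes are higher in ON-BCs, and all phototransduction genes drawn are higher in rods.

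Rod phototransduction differed in the opposite direction. All 20 genes of the list were called lower in ON-BCs against a background of 15.6%, with a median log2 fold change of −6.77 and a range from −8.27 to −3.46. Gnat1, the alpha subunit of rod transducin, was at 4089, 5244 and 3613 against 419700, 588400 and 488100. Gnb1, the transducin beta subunit and the most abundant rod gene, was at 9519, 4577 and 12910 against 1130000, 1618000 and 1295000. For all of these genes the libraries of the populations lay far apart. Pde6b, a catalytic subunit of the phosphodiesterase that transducin activates, had the largest difference of the list at −8.27, with 874, 996.5 and 814.7 against 266900, 291300 and 267200.

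The smaller differences in this list belonged to Gngt1, the transducin gamma subunit, at −3.46, to Cngb1, a subunit of the light-sensitive channel, at −3.52, and to Rgs9bp, the membrane anchor of RGS9, at −3.66. In ON-BCs the 20 genes stood at 0.325% (Pde6b) to 9.01% (Cngb1) of their rod level, with a median of 0.926%, and their sum per ON-BC library was 1.09 to 1.19% of the rod sum. The 11 higher cascade genes stood in rods at 0.108% (Gng13) to 4.47% (Gnb3) of their ON-BC level, with a median of 0.335%. Each population thus held a low level of the signature genes of the other. The source of these reads was not tested.

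Genes of the outer segment and its connecting cilium were lower as well, with a median log2 fold change of −4.02. Of 31, 23 were called lower and none higher, against 15.6% and 26.2% of all tested genes. All 7 disc genes were lower, among them Prph2, which shapes the disc rim, at 6629, 3904 and 6990 in ON-BCs against 153400, 200800 and 173500 in rods. The interphotoreceptor matrix genes Impg1 and Impg2 were lower by −7.29 and −6.27. Of 15 axoneme and cilium genes, 9 were called lower. Rp1 and Rp1l1, microtubule proteins of photoreceptor outer segments, differed most, at −8.13 and −8.18. Genes of cilia in general were divided between those called lower and those not called. Bbs2, Bbs7 and Ttc8, subunits of the BBSome, were lower by −2.29, −4.02 and −2.21 and Cep290, of the transition zone, by −2.22, while Ift140, Cluap1 and Nphp4 had log2 fold changes of −0.50, −0.70 and −0.52 and were not called. Rpgr, Spata7 and Iqcb1 were not called either. All 3 retinoid genes were lower, with Rdh12, a retinal-reducing enzyme, at −6.24.

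Chromatin accessibility was measured at the same promoters by ATAC-seq in 2 ON-BC and 2 rod libraries of the series, which held 4719715 to 4992922 and 9665199 to 10890548 reads. These ON-BC libraries came from postnatal days 42 and 46 and the rod libraries from postnatal day 56. Age and cell class thus changed together here too. A promoter region was a 200 bp region within 1000 bp upstream to 100 bp downstream of a RefSeq start, and the most accessible one was kept for each gene. The following promoters are shown because their genes carry the contrast: 3 genes of rods and 3 of ON-BCs. Each line gives the 250 bases before one RefSeq start of the gene in GRCm38.p6, 5′ to 3′ on the strand of the gene. Capitals mark matches on either strand to TAATCC, the core recognised by CRX and OTX2, CAGCTG, an E-box read by bHLH factors, or TGCTGA, a core of the NRL site, and TAATTA, a homeodomain core, was searched but did not occur in these 6.
Pde6b promoter, chr5:108388123-108388372, plus strand: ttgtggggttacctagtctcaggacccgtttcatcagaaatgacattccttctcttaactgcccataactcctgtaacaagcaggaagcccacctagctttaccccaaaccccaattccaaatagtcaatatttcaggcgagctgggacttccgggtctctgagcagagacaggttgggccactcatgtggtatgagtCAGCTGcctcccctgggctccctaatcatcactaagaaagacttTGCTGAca
Gngt1 promoter, chr6:3993758-3994007, plus strand: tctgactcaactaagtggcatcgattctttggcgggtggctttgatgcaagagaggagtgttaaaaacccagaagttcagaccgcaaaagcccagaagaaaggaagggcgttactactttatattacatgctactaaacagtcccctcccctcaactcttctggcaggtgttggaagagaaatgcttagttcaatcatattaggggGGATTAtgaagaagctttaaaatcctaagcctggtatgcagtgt
Samd7 promoter, chr3:30746043-30746292, plus strand: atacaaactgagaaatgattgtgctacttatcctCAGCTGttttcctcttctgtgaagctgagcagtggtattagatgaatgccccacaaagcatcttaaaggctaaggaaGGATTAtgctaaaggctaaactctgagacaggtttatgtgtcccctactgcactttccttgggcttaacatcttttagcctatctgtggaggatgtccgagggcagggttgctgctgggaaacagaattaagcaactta
Trpm1 promoter, chr7:64153585-64153834, plus strand: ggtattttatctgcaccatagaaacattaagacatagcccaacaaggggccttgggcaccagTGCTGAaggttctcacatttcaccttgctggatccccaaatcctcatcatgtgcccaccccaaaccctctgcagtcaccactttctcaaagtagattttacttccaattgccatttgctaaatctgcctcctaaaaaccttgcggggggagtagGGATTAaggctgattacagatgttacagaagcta
Cabp5 promoter, chr7:13397905-13398154, plus strand: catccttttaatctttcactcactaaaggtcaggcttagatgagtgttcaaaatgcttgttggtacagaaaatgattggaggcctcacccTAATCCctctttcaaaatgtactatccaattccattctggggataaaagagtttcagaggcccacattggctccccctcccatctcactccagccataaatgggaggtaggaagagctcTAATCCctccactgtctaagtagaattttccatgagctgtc
Isl1 promoter, chr13:116309689-116309938, minus strand: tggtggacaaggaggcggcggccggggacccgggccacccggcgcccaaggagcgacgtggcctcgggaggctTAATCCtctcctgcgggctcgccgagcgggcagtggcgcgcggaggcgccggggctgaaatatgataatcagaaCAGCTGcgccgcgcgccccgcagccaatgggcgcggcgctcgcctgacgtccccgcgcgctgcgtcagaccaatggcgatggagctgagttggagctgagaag

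In the Pde6b sequence, CAGCTG began 52 bases and TGCTGA 8 bases upstream of the start. Gngt1 had TAATCC on the other strand at 44 bases and Samd7, which encodes a photoreceptor repressor, had it at 139 bases together with CAGCTG at 216. Trpm1 had TAATCC on the other strand at 34 bases and TGCTGA at 188. Cabp5, a calcium-binding protein of bipolar cells, had TAATCC at 160 and at 41 bases. Isl1, an ON-BC homeodomain factor, had TAATCC at 177 together with CAGCTG at 103. The CRX and OTX2 core was therefore found before genes of both classes. None of the matches overlapped one of another motif. Of 21486 promoters of this length, 5.86% held TAATCC, 12.6% CAGCTG, 14.8% TGCTGA and 4.25% TAATTA. Among genes with a promoter sequence, TAATCC stood before 14.4% of the 362 that were more than 16-fold lower in ON-BCs, 5.92% of the 1217 that were more than 16-fold higher and 6.5% of the 10975 tested. CAGCTG stood before 14.9%, 21.4% and 14.8% of the same sets. A match describes letters and not binding. The starts used for Gngt1 and Cabp5 lie inside the span of the gene model, so other transcripts of these genes begin elsewhere.

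The most accessible promoter region of each gene was called in the direction of the RNA in 5 of the 6 genes. This region was taken over all RefSeq starts of the gene and need not cover the bases printed above. The Samd7 region had 17.92 and 17.57 normalized ATAC counts in the ON-BC libraries and 516.3 and 465.5 in the rod libraries, with RNA at 10.32, 36.25 and 13.34 against 8108, 8240 and 7470. The Pde6b region had 23.89 and 5.857 against 490.6 and 451.3. The Gngt1 region had 140.4 and 120.1 against 229.7 and 238.5, and its log2 fold change of −0.85 was not called (limma adjusted p = 0.888). For the ON-BC genes the rod regions were almost empty. The Trpm1 region had 88.09 and 101 counts in ON-BCs and 0 in both rod libraries, the Cabp5 region 194.1 and 266.5 against 0, and the Isl1 region 301.6 and 342.6 against 0 and 1.355. The RNA of Isl1 was at 24420, 28020 and 26360 in ON-BCs and 56.27, 60.44 and 153.5 in rods.

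Over all promoter regions tested, 17.3% were called more accessible and 15.6% less accessible in ON-BCs. Of the genes called higher in ON-BCs that had a promoter region, 1169 of 2870 (40.7%) had a more accessible promoter and 244 (8.5%) a less accessible one. Of the genes called lower, 497 of 1929 (25.8%) had a less accessible promoter and 65 (3.37%) a more accessible one. Counted per gene, over the 11854 tested genes with such a region, 13.9% had a more accessible and 17.0% a less accessible promoter. The shares with a change in the same direction were 66.5% for genes more than 16-fold higher and 50.5% for genes more than 16-fold lower. Most promoters of the moderately changed genes were therefore not called. With TMM scaling of the ATAC counts, which moved the median log2 fold change over all regions by −0.328, the regions called lower numbered 4190 against 2489, and the shares of 40.7% and 25.8% became 36.6% and 39.6%. Across 11854 genes the promoter and RNA log2 fold changes had a Spearman correlation of 0.355, given as a description since genes of a library are not independent.

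A few listed genes had RNA and promoter calls in opposite directions, and they were singled out after their values were seen. Slc12a5, which encodes the chloride exporter KCC2, had RNA higher by a log2 fold change of 3.01 while its promoter region had 32.85 and 54.17 ATAC counts in ON-BCs and 265.6 and 257.5 in rods. Syt7, a calcium sensor of release, had RNA higher by 6.17 and a promoter at 29.86 and 17.57 against 123 and 121.3. Tubb3, Mbd3, Ebf1, Gnat2 and Nr1d1 showed the same combination. Gnat2 is a cone gene with a mean of 163300 normalized counts in blue cones, here photoreceptors of Nrl-knockout mice. It is among 58 genes that the study's rule against carry-over from other cells, adapted to this contrast, would remove. The cone gene Pde6c, the stress-responsive factor Klf6 and 2610301B20Rik had lower RNA and a more accessible promoter. The use of other starts by these genes was not tested.

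Transcription factors of bipolar cells were higher in ON-BCs, with a median log2 fold change of 4.74. Of 29, 24 were called higher against 26.2% of all tested genes, and none was called lower. Sebox, a homeodomain factor of rod bipolar cells, was at 21080, 23250 and 22800 against 161.1, 196.7 and 211.8. Every ON-BC library lay far above every rod library for this gene. The 5 bHLH factors were all higher, led by Bhlhe23, required for rod bipolar survival, at 8.28 and Neurod4 at 6.77. The nuclear factor I genes Nfia, Nfib and Nfix were higher by 4.74, 5.11 and 4.92. Otx2, which carries GFP in an allele in the ON-BC mice, was at 9451, 8743 and 9750 in ON-BCs and 6796, 7638 and 7173 in rods and was not called.

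Among factors of photoreceptors, 16 of 22 were called lower against 15.6% of all tested genes, with a median of −3.67. Nrl, whose promoter marked the rods, was at 99.06, 139.1 and 92.34 in ON-BCs and 11480, 16600 and 14470 in rods. Nr2e3, a nuclear receptor that acts with NRL, was lower by −7.71, and Casz1 and Samd11 were lower by −7.47 and −7.98. Crx, the photoreceptor homeodomain factor, was at 9266, 8334 and 9848 in ON-BCs against 60820, 71610 and 62280 in rods, which is −2.83 on the log2 scale. Crx, Neurod1 at −1.89 and Rorb at −2.14 were thus lower but still at 8334 normalized counts or more in every ON-BC library. The genes called higher were Neurod2 at 7.74, Tbx2 at 7.03 and the circadian repressor Nr1d1 at 1.60. Rora was not called, at 6319 to 6893 against 8097 to 8406.

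**Figure D3:**
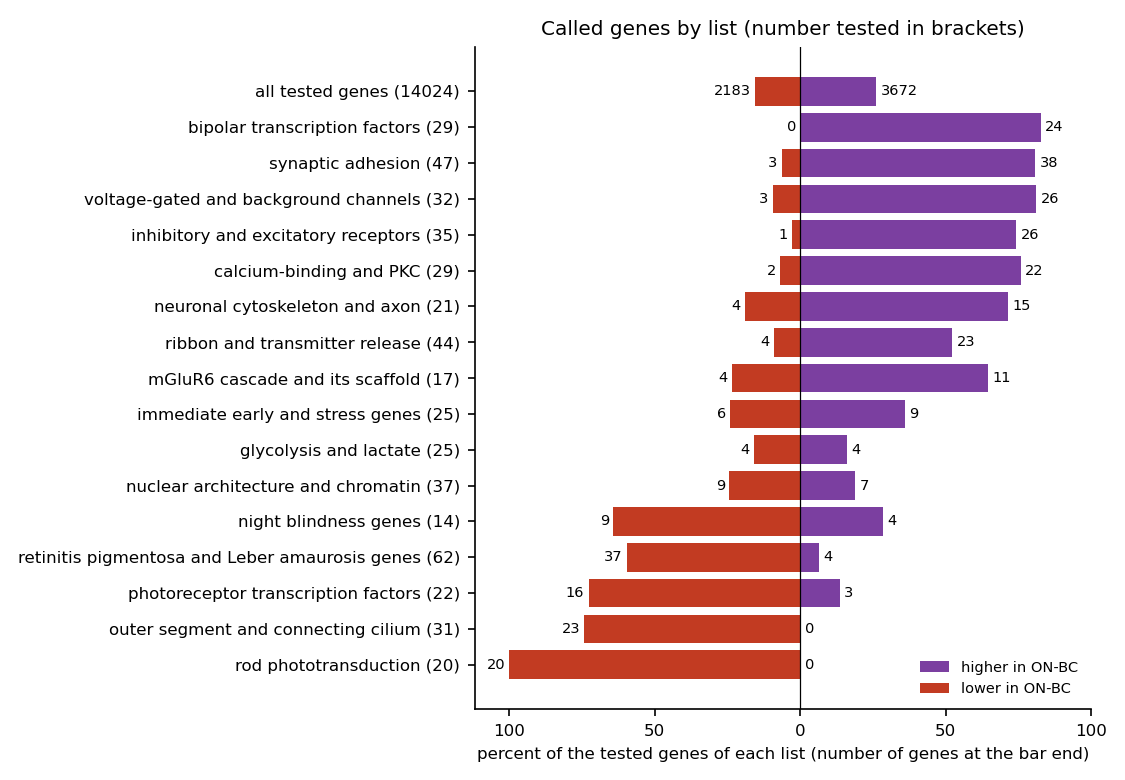
Percent of the tested genes of each list called higher (right) or lower (left) in ON-BCs, with the number of genes at the bar end. All 20 phototransduction genes are lower, 24 of 29 bipolar transcription factors are higher, and the bar of all 14024 tested genes stands at the top for comparison.

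Of 44 ribbon and transmitter release genes, 23 were called higher and 4 lower, against 26.2% and 15.6% of all tested genes, with a median of 1.62. Several genes of the ribbon core were not called. Ctbp2, whose RIBEYE isoform forms the ribbon, was at 8734 to 9503 in ON-BCs and 5458 to 5770 in rods, and Pclo, Rims2, Erc2 and Unc13b had log2 fold changes between −0.76 and 0.51. None of these 5 was called. Rims1 was at 69.13, 117.6 and 65.67 against 0, 1.024 and 0, and Bsn, a scaffold of the active zone, was higher by 1.44 (limma adjusted p = 0.0102), a call that was lost without ON-BC library 2 (limma adjusted p = 0.0532). Snap25, a SNARE protein, was at 91430, 80780 and 98530 against 24250, 41110 and 33990 and missed the threshold (log2 fold change 1.48, limma adjusted p = 0.0604).

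Complexins, which regulate vesicle fusion, divided by paralog. Cplx3 was at 42160, 44650 and 50810 in ON-BCs and at 853.8, 1243 and 1171 in rods, while Cplx4 was at 9533, 8184 and 10670 against 62100, 78570 and 68590. Both ribbon complexins were thus present in both populations in opposite proportion. Cplx1 and Cplx2 were also higher, by 4.25 and 5.56. The synapsins Syn1 and Syn2, which conventional synapses use, were higher by 6.05 and 5.79. The vesicular glutamate transporter Slc17a7 was at 4951 to 5250 in ON-BCs and 2857 to 3420 in rods and was not called.

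Calcium channel subunits and their modulators were 12, of which 8 were higher and 3 lower, against 26.2% and 15.6% of all tested genes. Cacna1f, the L-type channel of photoreceptor terminals, was at 3940, 4056 and 4217 against 12830, 10520 and 12300, a log2 fold change of −1.54 (limma adjusted p = 0.00348) that was not called with library totals as scaling (−1.19, limma adjusted p = 0.275). Cacna1d, the related channel, was at 966.9, 1014 and 776.7 against 9.702, 3.073 and 8.645. The T-type channel Cacna1h was higher by 7.62. The auxiliary subunits split into Cacna2d3, higher by 7.95, and Cacna2d4, at 10060 to 13660 against 9596 to 10970. Calcium-binding modulators also changed places. Cabp4, which sets the voltage range of the rod channel, was at 46.43, 52.91 and 44.12 in ON-BCs and 5296, 6504 and 5935 in rods, whereas Cabp5 was at 32370, 29390 and 31950 against 234.8, 232.5 and 356.6.

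To describe such exchanges, 18 pairs of related proteins were examined, each with a partner expected in rods and another expected in bipolar cells. In 11 pairs the rod partner was called lower and the bipolar partner higher, in 3 the rod partner alone was lower, in 1 the bipolar partner alone was higher, and in 3 neither was called. No pair had a partner called in the opposite direction. Over all tested genes, 15.6% were called lower and 26.2% higher. Partners were assigned by where they were expected, so these counts describe the pairs and are no independent result. Per kilobase of RefSeq exon, the mean normalized count in rods was 218100 for Gnat1 and 34.25 for Gnao1, and in ON-BCs it was 1887 for Gnat1 and 2436 for Gnao1. Counts per kilobase of the G protein alpha subunits were thus similar in ON-BCs, although their order differed between the populations. Gnat1 in ON-BCs stood at 0.865% of its rod mean, near the median of 0.926% for the 20 phototransduction genes. Its mean normalized count was 4315 in ON-BCs, sorted in a single pass, and 374.8 in OFF-BCs, sorted in 2 passes. The source of these Gnat1 reads was not tested. For the L-type channels, Cacna1f stood at 1956 per kilobase in rods and 670.1 in ON-BCs, and Cacna1d at 0.7789 and 100.3, so Cacna1f remained the higher of the pair in both. For the sodium/calcium-potassium exchangers, Slc24a1 stood at 8197 in rods and 64.35 in ON-BCs, and Slc24a3 at 1.639 and 382.7. Here the order reversed. Aldolase (Aldoa, Aldoc), lactate dehydrogenase (Ldha, Ldhb) and the vesicular transporter pair (Slc17a7, Slc17a8) showed no called partner, with Slc17a8 too low to test.

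**Figure D4:**
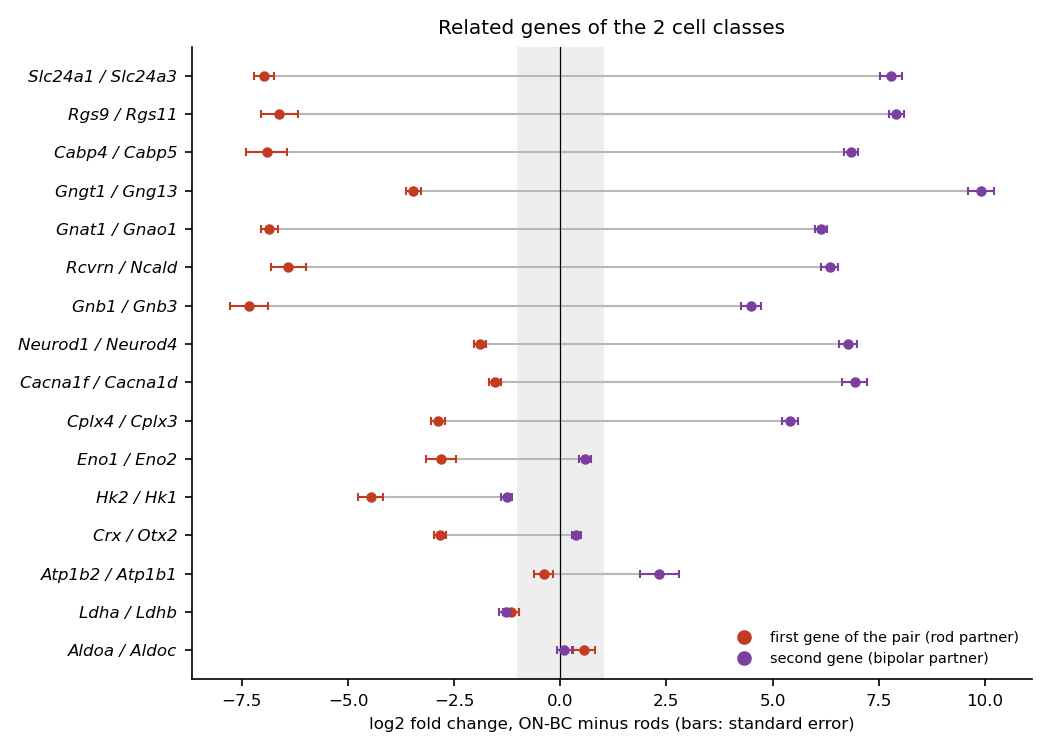
Log2 fold change of ON-BCs over rods for the rod and the bipolar partner of 16 pairs, with 1 further pair of tested partners not drawn, with lines joining partners, bars of 1 standard error and a grey band from −1 to 1. In 10 of these pairs the rod partner lies below 0 and the bipolar partner above 0 past the test, and aldolase and lactate dehydrogenase partners lie close together.

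Of 35 receptor genes for inhibitory and excitatory input, 26 were called higher and 1 lower, against 26.2% and 15.6% of all tested genes. Their median was 4.46, or 3.80 when genes without reads in a population are set at their bound. Of 15 GABA receptor genes tested, 13 were higher. Gabrr1 and Gabrr2 encode receptor subunits that shape feedback from amacrine cells onto bipolar terminals. Gabrr1 was at 16360, 15010 and 18080 against 49.48, 58.39 and 76.73, and Gabrr2 at 29910, 27200 and 33990 against 115.5, 170 and 241. The glycine receptor genes Glra1 and Glrb were higher by 7.96 and 5.33. Among glutamate receptors 10 of 12 were higher, including the AMPA receptor gene Gria1 at 2638, 3162 and 3003 against 8.732, 6.146 and 30.26. Grin2d, an NMDA receptor subunit, was the gene called lower, at 8.255, 4.899 and 3.078 against 166.9, 181.3 and 182.6. Grin2b was at 40.24, 29.4 and 1050 in ON-BCs against 0, 0 and 1.081, so library 3 set its mean, and its log2 fold change of 6.42 became 4.79 without that library. Slc12a5, which keeps chloride low so that GABA inhibits, was at 8496, 9091 and 8546 against 1064, 1029 and 1142.

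Voltage-gated and background channels had the next highest median after the mGluR6 cascade, 6.22, or 5.86 with such genes at their bound. Of 32, 26 were called higher against 26.2% of all tested genes. Kcnma1, the large-conductance calcium-activated channel, was at 14650, 17770 and 15420 against 51.42, 46.1 and 99.42. The inward rectifier Kcnj12 was at 1069, 1012 and 1093 against 1.94, 0 and 1.081, a ratio of 1030 with a 95% Poisson interval of 354 to 5010 that covers counting error only. Of 7 sodium channel genes 6 were higher, with Scn1a, Scn2a1 and Scn3a at 6.67, 6.88 and 7.49. The 3 channels called lower all belonged to the potassium group. Kcnv2, a modifier subunit of photoreceptors, was at 88.74, 94.06 and 45.15 against 22180, 25370 and 26820, and Kcnj14 was lower by −5.51.

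Genes of axons and contacts formed another group on the ON-BC side. Of 47 synaptic adhesion genes, 38 were called higher and 3 lower, against 26.2% and 15.6% of all tested genes. Their median was 5.82 (5.64 with genes at their bound). Nrxn3, a presynaptic neurexin, was at 13200, 16360 and 13870 against 95.08, 125 and 151.3, and all 4 teneurins were higher. The genes called lower were Cadm2, Elfn1 and Egflam. Of 21 cytoskeletal genes, 15 were higher and 4 lower, against the same shares of all tested genes. Mapt, the axonal protein tau, was at 6414, 6381 and 5893 against 25.23, 24.58 and 31.34, and Stmn4 had no read in rods and was at least 140-fold higher, taking 3 reads per library as the floor. Map1b and Map2 were lower, by −2.50 and −2.84, although Map1b stayed at 13970 to 15560 normalized counts in ON-BCs. Neuronal cytoskeletal genes thus went in both directions.

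Calcium-binding proteins and kinases were higher in 22 of 29 cases against 26.2% of all tested genes, with a median of 3.51. Scgn, a calcium buffer of cone bipolar cells, was at 28200, 27830 and 35640 against 103.8, 78.88 and 176.1. Hpcal1, a neuronal calcium sensor, went the other way, at 45.4, 40.17 and 51.3 against 2851, 2742 and 3278.

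Of 25 glycolysis genes, 4 were called higher and 4 lower, with a median of 0.10. These shares lie below or near the 26.2% higher and 15.6% lower of all tested genes and are no result about the list. Hk2, the hexokinase that photoreceptors use, was at 845.1, 481.1 and 644.3 against 13600, 16310 and 12930, and Pfkfb2, which makes an activator of phosphofructokinase, was lower by −4.82. Slc16a1, a lactate transporter, was lower by −4.81, while the neuronal glucose transporter Slc2a3 was at 2140, 1847 and 2095 against 108.7, 157.8 and 144.8. Transport steps thus differed in opposite directions. The abundant enzymes Aldoa, Pkm, Ldha and Gpi1 had log2 fold changes between −1.16 and 0.77 and were not called. Eno1 was called lower at counts of 21.56 to 236.6, but this gene has near-identical processed copies and its count is uncertain.

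Rod nuclei of mice are inverted, with heterochromatin at the centre. Of 37 genes of nuclear architecture and chromatin, 7 were higher and 9 lower, with a median of −0.09. Together this share is close to the 41.7% of all tested genes called in either direction. Lmna, the A-type lamin, was at 499.4, 292 and 419.6 in ON-BCs and 4.851, 2.049 and 4.323 in rods. Lbr, the lamin B receptor, was at 649, 669.2 and 676.2 against 1833, 1869 and 2049, a log2 fold change of −1.52 that was not called with library totals as scaling (limma adjusted p = 0.155 in that fit). The methylcytosine dioxygenases differed in opposite directions, with Tet1 higher by 5.36 and Tet3 lower by −2.07. Hmgb2 was lower by −4.30. The heterochromatin protein genes Cbx1, Cbx3 and Cbx5, and Ctcf, were not called. With library totals as scaling, 5 genes of this list were lower in place of 9.

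Genes of human retinal disease were sorted by the site of the defect. Of 14 genes of congenital stationary night blindness, the 5 assigned to ON-BCs comprised 4 called higher (Grm6, Trpm1, Gpr179 and Nyx) and Lrit3, called lower. All 6 assigned to rod phototransduction were lower, and of the 3 assigned to photoreceptor release Cacna1f and Cabp4 were lower and Cacna2d4 was not called. Of 62 genes of retinitis pigmentosa and Leber congenital amaurosis, 37 were lower, 4 higher and 21 not called. Over all tested genes, 15.6% were lower and 26.2% higher. The median of the list was −2.99. The 21 included the splicing factors Prpf6, Prpf8, Prpf31 and Snrnp200, with log2 fold changes between −0.80 and 0.62, and Rp9. Another splicing factor, Prpf3, was called lower at −1.33 (limma adjusted p = 0.0205), a call that was lost with library totals as scaling (limma adjusted p = 0.968) and without ON-BC library 2, rod library 1 or rod library 2 (limma adjusted p = 0.0952, 0.0627 and 0.0517). The higher genes were Slc7a14, Arl2bp, Idh3b and Pomgnt1. Slc7a14, an amino acid transporter of the lysosome, was at 1408, 1483 and 1280 in ON-BCs and 0, 0 and 1.081 in rods, a ratio of 4080 with a 95% Poisson interval of 732 to 161000.

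The largest differences among genes with a mean of at least 1000 normalized counts were then listed, 15 in each direction. Toward ON-BCs, Lyve1, known as a receptor of lymphatic endothelium, was at 1654, 1754 and 1589 against 0, 0 and 2.161, while the 9 endothelial and mural markers summed to 85.64 to 122.5 in ON-BCs and 192.6 to 247.4 in rods. Mt1, a metal-binding metallothionein, was at 31700, 25140 and 31540 against 39.78, 22.54 and 37.82. Nrg1, a growth factor ligand of ERBB receptors, was at 1400, 1277 and 1270 against 2.911, 0 and 0. The list also held the adhesion genes Amigo2, Cntn5 and Mdga1 at 9.71, 9.38 and 9.09, the calmodulin-binding Pcp4 at 9.11, and Fam135b, Fam196a and Trnp1 at 9.31, 9.09 and 9.13. Gng13, Pcp2, Kcnj12, Rgs7 and Slc7a14 completed it.

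Toward rods, Hdc, which encodes the histamine-forming enzyme histidine decarboxylase, had no read in any ON-BC library and was at 2298, 2035 and 2064 in rods, at least 702-fold lower in ON-BCs with 3 reads per library as the floor. Ahrr, the repressor of the aryl hydrocarbon receptor, was at 10.32, 1.96 and 1.026 against 4389, 3702 and 3774. Jag1, a Notch ligand, was at 85.64, 38.21 and 51.3 against 24660, 23090 and 22660. Sgk1, a kinase that regulates ion transport, was at 88.74, 113.7 and 90.29 against 35350, 38640 and 35260. These genes are not part of the phototransduction machinery, and they were picked for the size of their difference. The remaining genes were Glp2r, the receptor of a gut peptide, at −9.39, the matrix genes Col4a3, Chst3 and Adamts3 at −9.13, −8.84 and −8.53, the transporter Abca13 at −9.54, and Gramd2, Samd7, Kcnv2, 2610034M16Rik, Gm11961 and BC027072 at −9.02 to −8.40.

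The most abundant transcripts gave a different view. In ON-BCs the 10 highest included Malat1, Aldoa, Mgarp, Gnb3, Snap25, Dpysl2, Rn45s, Ckb and Pcp2, and in rods they included Gnb1, Gnat1, Malat1, Sag, Pde6b, Prph2, Rn45s, Pdc and Rom1. The rod list held outer segment proteins. The ON-BC list held the cascade genes Gnb3 and Pcp2 beside genes of energy metabolism, the cytoskeleton and release. Malat1 and Rn45s were in both lists. Mgarp, a mitochondrial protein, was at 109100, 109800 and 127100 in ON-BCs against 9881, 13000 and 11330 in rods. Ckb, the brain creatine kinase, was at 60860, 65740 and 72850 against 10790, 12200 and 10800. Malat1, a nuclear noncoding RNA, was at 409400 to 412600 and 372700 to 408400, with a log2 fold change of 0.05 (95% interval −0.92 to 1.02). The most abundant genes with an interval inside −1 to 1 included Atp1b2, Actb, Slc6a6, Ywhae, H3f3b, Ncam1, Gsk3b, Tmbim6 and Gnb5, among them a beta subunit of the sodium pump (Atp1b2) and the taurine transporter (Slc6a6).

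The share of genes that differed varied with the length of the gene. Of 831 genes that span more than 200 kb in RefSeq, 53.9% were called higher in ON-BCs and 12.2% lower, against 19.6% and 18.2% of 3631 genes that span 20 to 50 kb. The shortest genes, under 5 kb, were higher in 32.2% and lower in 11.3% of 1843. Both ends of the length range thus held more genes higher in ON-BCs than the middle, and Spearman's correlation of span against log2 fold change over 13945 genes was −0.00853. The excess among long genes was present in each tertile of mean level, with 67.0%, 51.2% and 39.5% of genes over 200 kb called higher against 34.7%, 21.4% and 17.3% of the other genes. Over 18 alternative settings, the other fold thresholds included, the share ranged from 44.4 to 66.3% for genes over 200 kb and from 12.4 to 34.7% for genes of 20 to 50 kb. Long genes of the adhesion and channel lists, such as Nrxn3, Cntn5 and Ptprd, belonged to this group.

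**Figure D5:**
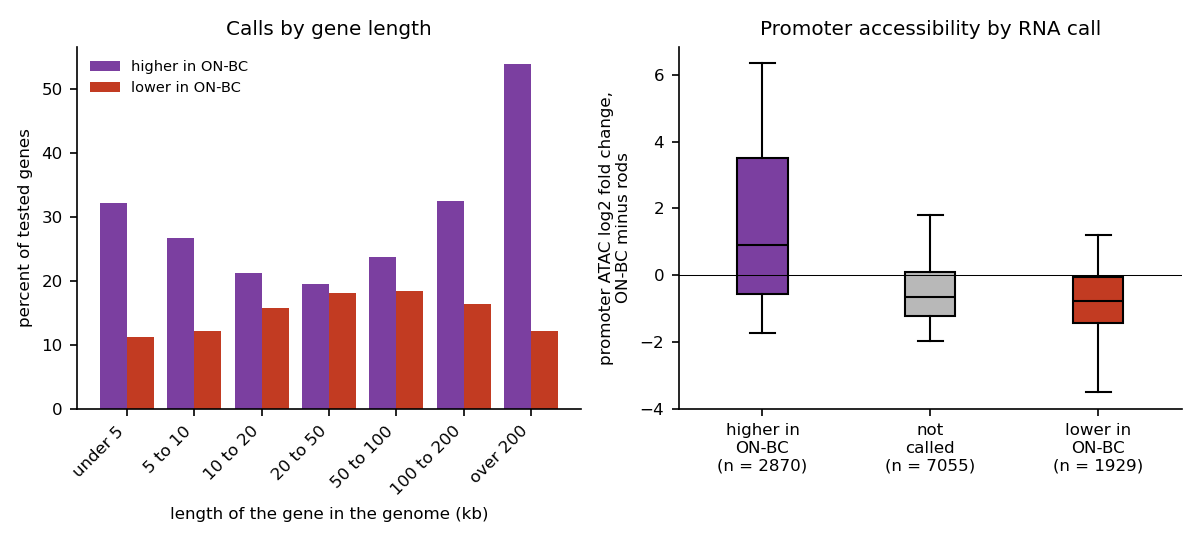
Left, percent of tested genes called higher and lower in ON-BCs by genomic span of the gene in kilobases. Right, promoter ATAC log2 fold change by RNA call, with boxes at the quartiles, a line at the median (0.91 for higher and −0.78 for lower genes) and whiskers at the percentiles 5 and 95.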

How the data were processed

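Expression was compared between 3 ON-BC and 3 rod RNA-seq libraries. The signal values deposited by the authors were read counts divided by a size factor per library. Reads had been aligned to GRCm38 (mm10) with STAR 2.7.0d and counted on RefSeq genes with HTSeq, and the strand setting is not given in the sources used here. Of 230384 RNA values above 0, 100.0% were whole reads within 0.01, as were 100.0% of 1212862 ATAC values, and these counted reads served the filters and the count tests. For ATAC-seq, duplicates were removed with Picard 2.19.0, peaks were called with MACS2 2.1.1, and the authors counted reads in 110715 regions. No other columns of per-sample values were in the tables.

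Genes were kept by filterByExpr (edgeR 4.0.16). The values were modelled as log2(value + 1) by population over all 15 RNA libraries in limma 3.58.1 (R 4.3.3), and treat tested the contrast against a log2 fold change of 1 with Benjamini-Hochberg adjustment at 0.05. The added 1 understates changes of genes with few reads. The 12 ATAC libraries were fitted likewise. The study itself tested with DESeq2, tried here (version 1.42.0) as an alternative beside edgeR, other scalings, pseudocounts, filters, sample sets and the omission of each library. The fit was tested on simulated data.

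Named genes were those of the gene lists, marker lists and pairs, the 15 largest differences in each direction with a mean of at least 1000, the 10 highest genes of each population, and the 10 highest with a 95% interval inside −1 to 1. The lists and members were chosen with earlier results of these data known. Of the table's genes, 23852 matched RefSeq, 1326 of them by an older name, and 210 did not. The table holds 27 gene names in the form of dates. Genes with near-identical copies, such as the heat shock genes, may share reads. Some genes that the rule names are not reported here. Intervals and floors (3 reads per library) cover counting error only. Deposited peak lists were not used.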

Additional observations from a re-analysis of the deposited data

Results flagged for a closer look

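The difference from rods was unequal in ON-BCs and OFF bipolar cells (OFF-BCs) for 15 of the named genes, by limma's test of ON-BC minus OFF-BC in the same fit. Both differences use the same rod libraries. ON-BC and OFF-BC libraries of the same number share genotype and age (postnatal days 43, 48 and 42), but OFF-BCs were sorted in 2 passes and ON-BCs in 1. Their deviations from the population means correlated by −0.0763, 0.222 and −0.0649 across genes, so the numbers were not taken as pairs. With a replicate block over these libraries, chosen after seeing the data, all 15 were still called (highest limma adjusted p = 0.00518, for Nrg1). Groups of 3 libraries are too small for a check of single outlying libraries.

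Among cascade genes, Grm6 differed most, with means of 13500 normalized counts in ON-BCs, 267.6 in OFF-BCs and 68.16 in rods, and the ON-BC minus OFF-BC log2 difference was 6.24 (limma adjusted p = 2.7e-06). Grm6 also drove the sort. For Gpr179 the difference was 3.87 (means 13900, 1001 and 46.63), for Trpm1 3.19 (56870, 6297 and 138.5), for Gnb3 2.81 (92920, 13750 and 4158) and for Gnao1 2.29 (14630, 3014 and 205.7), with means in the same order. Pcp2 differed by 2.48, with 65650, 11960 and 111. Gnb5 differed by 1.7, with 15890, 4900 and 24290, so that it was near its rod level in ON-BCs (log2 fold change −0.61) and lower in OFF-BCs (−2.31).

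Of the genes with the largest differences from rods, Cntn5 stood out by 5.03 (means 1407 in ON-BCs, 58.33 in OFF-BCs and 1.367 in rods), Mt1 by 3.54 (29460, 2600 and 33.38), Nrg1 by 3.12 (1316, 154.8 and 0.9702), Amigo2 by 2.88 (3395, 463.4 and 3.721) and Fam196a by 2.58 (12330, 2025 and 22). All of these were higher than rods in both bipolar populations by log2 values of 4.35 or more. On the rod side Gm11961 differed by −4.4 (5.307, 112 and 2262), Adamts3 by −2.48 (13.57, 80.48 and 5128) and Jag1 by −2.31 (58.39, 281.7 and 23470), so ON-BCs lay further below rods than OFF-BCs did.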

How the results depend on the processing

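Tests changed the number of calls more than the direction. Without a fold threshold limma called 10996 genes (6046 higher, 4950 lower), against a log2 fold change of 2 it called 3224 (2308 and 916), and among genes with a mean of at least 100 it called 3887, of which 2139 were higher. Promoter regions called lower numbered 2489 in the reported fit, 5066 with edgeR and 4190 with TMM scaling. Leaving out single libraries gave 5582 to 5692 genes (3515 to 3590 higher, 2039 to 2131 lower) and 4345 to 4874 promoter regions (2531 to 2570 higher, 1814 to 2304 lower). The cause of these shifts was not tested. By edgeR 6508 genes were called, by DESeq2 5614, and with the 6 libraries alone 5620.

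The alternatives gave 9604 values for 541 named or listed genes, and none of the 378 called genes among them reversed direction. Genes that were not called could change sign, such as Vim, with a log2 fold change of 0.047 in the reported fit and −0.089 with edgeR. Calls were lost for 14 genes with library totals as scaling, for 8 with DESeq2, for 22 with a pseudocount of 8, for 81 when tested against a log2 fold change of 2 and for 7 to 14 without single libraries. Library totals also left 2 ribbon and release genes called lower in place of 4. Same-numbered libraries did not deviate together (correlations of −0.0261 to 0.0127 for RNA and −0.004 for ATAC). With the replicate number as a block, 5834 genes (3666 higher, 2168 lower) and 5194 promoter regions were called, and no named gene lost its call. The carry-over rule of the study, adapted to this contrast, would remove 58 genes. With 2 ATAC libraries per population and few reads in weak regions, small promoter differences were not detectable.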

Other observations

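Immediate early and stress genes, which respond to handling and dissociation of tissue, differed in both directions. Of 25 tested, 9 were called higher in ON-BCs and 6 lower, against 26.2% and 15.6% of all tested genes. Fos was at 894.6, 5116 and 2118 normalized counts in ON-BCs and 636.5, 289.9 and 399.8 in rods, and Egr1 was at 246.6, 3677 and 775.7 against 225.1, 61.46 and 99.42. ON-BC library 2 held the highest value of both, and neither call held without it (limma adjusted p = 0.072 for Fos and 0.186 for Egr1). The Egr1 call was also lost without rod library 2 (limma adjusted p = 0.103) or rod library 3 (0.0586). Nr4a1, another gene of this response, was at 652.1, 2984 and 2349 against 89.26, 110.6 and 96.18. In contrast, the heat shock gene Hspa1a was at 6.191, 7.839 and 3.078 in ON-BCs and 1010, 886.1 and 904.5 in rods, and Jun was at 96.99, 178.3 and 168.3 against 577.3, 473.3 and 569.5. Hspa1a shares most of its sequence with Hspa1b, which had no read in ON-BCs.

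Cone genes also split. Gnat2, the alpha subunit of cone transducin, was at 2794, 3446 and 3631 in ON-BCs and 878.1, 967 and 966.1 in rods, Gngt2, its gamma subunit, was higher by a log2 value of 3.11, and Cngb3, a cone channel subunit, by 2.25. All 3 are among the 58 genes that the study's rule against carry-over from other cells, adapted to this contrast, would remove. Their means in blue cones (Nrl-knockout photoreceptors) were 163300, 22490 and 25580, and the part of cone RNA in these differences was not tested. The cone opsin gene Opn1sw was at 822.4, 772.1 and 447.3 against 7389, 7590 and 7453, and Pde6c, the cone phosphodiesterase, was lower by −4.42. Transcripts of X inactivation and of the Y chromosome were present in every library. Xist was at 4292, 4851 and 2753 in ON-BCs and 1738, 841 and 1771 in rods, and none of the 5 sex-linked genes was called.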
